A study of Mus musculus with 125 samples.

Results

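Open chromatin of brain endothelial nuclei was compared between P6 mouse pups and E12 embryos. The members are the ATAC-seq libraries labelled endothelial from brain, 3 at P6 and 3 at E12, 6 of the 66 ATAC-seq libraries of the series, and the regions that differ between their peak lists. ATAC-seq cuts and tags DNA where chromatin is accessible, so a peak marks an open stretch of the genome. Tamoxifen at 0.015 mg/kg body weight was given at E10.5 to the dams of the embryos, or at P1 and P3 to the pups, and only tissues whose vessels showed GFP were used. Embryos were collected at E12.5. Adult mice, used here as a later age, had the same dose a week before their tissue was taken. The protocol text places the postnatal collection at P7, while the labels say P6, which is kept here as the group name. The alleles behind the GFP label, the promoter that drives them and the number of animals in a library are not given in the sources used here. Where nothing says that libraries came from separate animals, tests over them measure only the spread between these libraries.

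Peaks were ranked within each library by −log10 of the q-value, and the 27160 strongest of each, the length of the shortest list (P6 1), were kept and are called top peaks. Top peaks that touch were merged into 49732 regions over the 6 libraries. A region was called gained at P6 when it held a top peak in all 3 P6 libraries and in no E12 library, and lost when the reverse held. There were 1916 gained regions, 3.85% of the merged regions, and 3481 lost ones, 7.00%. P6 1 shares little with its replicates, so the regions were also chosen without it, which gave 3353 gained regions (7.23% of 46407) and 4195 lost ones (9.04%). Gained and lost describe ranks: a gained region can hold a weaker peak at E12. The whole P6 1 list is top peaks, so with all 6 libraries a lost region can hold no P6 1 peak of any rank.

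Endothelial cells line blood vessels. Those of the brain enter the neural tissue as sprouts in the embryo under VEGF and Wnt signals, and they build the blood-brain barrier: tight junctions seal the cells to each other, vesicle transport is kept low, and dedicated carriers move glucose, amino acids, lactate, hormones and iron across the wall. Around birth transporter levels rise and genes of leaky vessels such as Plvap stay low.

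The regions most easily read beside a gene are those at its start. Printed here are the 250 bases before the RefSeq start of 4 genes (GRCm38.p6), chosen because a gained or lost region covers them and because both directions and both a barrier and a vessel gene are represented. Capitals mark matches, on either strand, to the motif words listed with the promoter results, and a run with no capitals holds none of them. Mfsd2a, a lipid carrier of the barrier that also limits vesicle transport, and Slc7a1, a carrier of cationic amino acids, lay in gained regions. Emcn, an endothelial surface mucin, and Esm1, a secreted proteoglycan of sprouting tip cells, lay in lost ones.
Mfsd2a, gained, chr4:122961189-122961438, minus strand: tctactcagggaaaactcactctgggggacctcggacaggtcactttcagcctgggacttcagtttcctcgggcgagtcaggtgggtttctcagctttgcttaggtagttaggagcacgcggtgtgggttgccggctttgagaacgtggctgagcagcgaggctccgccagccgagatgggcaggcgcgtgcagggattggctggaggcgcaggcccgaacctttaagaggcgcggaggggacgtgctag
Slc7a1, gained, chr5:148392816-148393065, minus strand: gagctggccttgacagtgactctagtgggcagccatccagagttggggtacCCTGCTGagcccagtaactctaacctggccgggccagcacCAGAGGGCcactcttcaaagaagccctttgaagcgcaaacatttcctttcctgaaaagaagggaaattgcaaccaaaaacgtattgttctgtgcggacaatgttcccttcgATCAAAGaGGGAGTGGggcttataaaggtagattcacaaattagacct
Emcn, lost, chr3:137340828-137341077, plus strand: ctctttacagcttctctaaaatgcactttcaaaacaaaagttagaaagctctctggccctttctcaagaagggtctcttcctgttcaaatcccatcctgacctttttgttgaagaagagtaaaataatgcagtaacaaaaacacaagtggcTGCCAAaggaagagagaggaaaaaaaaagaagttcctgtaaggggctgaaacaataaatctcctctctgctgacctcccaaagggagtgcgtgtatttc
Esm1, lost, chr13:113209409-113209658, plus strand: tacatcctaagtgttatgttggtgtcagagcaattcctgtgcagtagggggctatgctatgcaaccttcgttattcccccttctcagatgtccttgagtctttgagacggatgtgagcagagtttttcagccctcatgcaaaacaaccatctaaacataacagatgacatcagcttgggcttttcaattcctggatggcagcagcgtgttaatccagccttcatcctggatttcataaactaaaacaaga
The 421 bp gained region at Mfsd2a ranked 9345, 13340 and 8525 in P6 1, 2 and 3, and 33591, 40528 and 29676 in E12 1, 2 and 3. The E12 peaks were present but weaker, as the rule for a gained region allows. The region of Slc7a1 ranked 6112, 21616 and 8306 at P6 and 39336, 53144 and 58148 at E12. The region at the Emcn start ranked 19391, 25788 and 20513 at E12, and 51613 and 39107 in P6 2 and 3. In adult brain libraries 1 and 2 it ranked 34871 and 24225, the second a top peak. The region at the Esm1 start ranked 16582, 15220 and 22376 at E12, and 86677 and 74665 in P6 2 and 3, with no adult brain peak. Neither had a peak in P6 1, which the rule fixes for every lost region.

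The libraries differed in depth and in the marker genes at which they had top peaks. E12 libraries kept 31.8 to 42.3 M tags and held 101322 to 111142 peaks, while P6 libraries kept 19.1 to 20.2 M and held 27160, 87133 and 79903. The depth ranges do not overlap, so depth and age cannot be told apart. The last top peak had a −log10 q of 13 to 16 at E12 and of 1.00, 7.71 and 6.91 in P6 1, 2 and 3, so the P6 1 list enters whole, weak peaks included. The header names show the same read processing for E12 1 to 3 and P6 3 and another for P6 1 and 2, so within 1 kind of processing only P6 3 can be set against E12. A top peak lay within 1 kb of the start of 12 to 14 of 18 general endothelial genes at E12 and of 16, 9 and 14 in P6 1, 2 and 3, against 0 or 1 in the 4 brain libraries labelled input of these ages. For 60 genes of other cell types the counts were 13, 5 and 7 at E12, 16, 25 and 17 at P6, 9, 24 and 22 in the P6 inputs and 18 in the E12 input. P6 2, rather than P6 1, had the most top peaks at genes of other cells: of 36 neural and glial genes it had 20, P6 1 had 11 and P6 3 had 12. Of 8 erythroid genes, Klf1 had one in all 6 libraries and Epor in P6 3, while Gata1, Alas2 and the globins had none.

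P6 libraries were less alike than E12 libraries. The Jaccard index, the bases shared by the top peaks of a pair of libraries over all bases they cover, was 0.680 to 0.716 for the 3 E12 pairs. It was 0.434 for P6 1 and 2, 0.486 for P6 1 and 3, and 0.564 for P6 2 and 3. Pairs across ages had 0.339, 0.322 and 0.329 for P6 1, 0.414, 0.391 and 0.396 for P6 2, and 0.472, 0.451 and 0.470 for P6 3. P6 1 thus had lower values with either age, although both of its values within P6 exceeded its values with E12. With P6 brain inputs 1, 2 and 3, P6 2 had 0.284, 0.488 and 0.487, of which the last 2 exceed its value with P6 1. P6 1 had 0.203, 0.293 and 0.313 with these inputs, and P6 3 had 0.263, 0.386 and 0.399. Top peaks were on average 858 to 874 bp wide at E12 and 439, 646 and 655 bp in P6 1, 2 and 3. Unequal widths cap an index counted in bases, most of all for P6 1 with E12. The part of width in these values was not tested. The same 3 E12 lists against P6 3, made with the same read processing, stayed below every E12 pair. Pairs within an age exceeded pairs between ages by 0.196 on average (exact permutation test over 10 arrangements, one-sided p = 0.1, the smallest p this design allows).

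**Figure D1:**
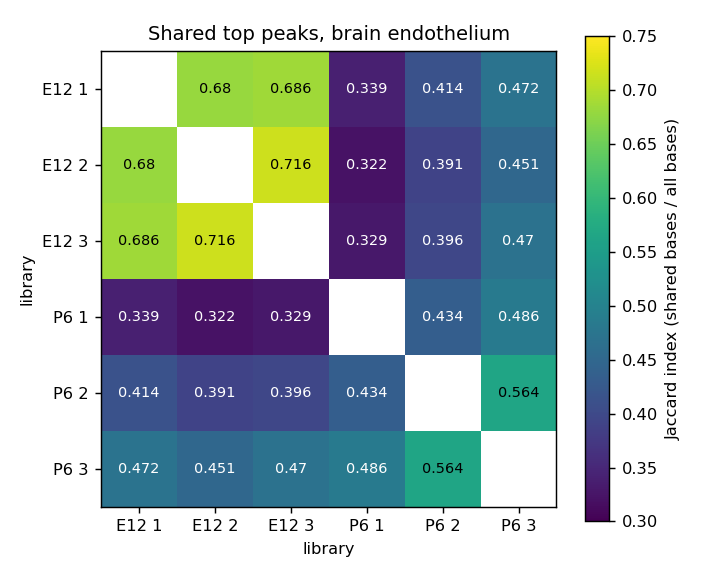
Jaccard index of the top peaks for each pair of the 6 brain endothelial libraries (rows and columns), coloured from low to high. The E12 block, 0.680 to 0.716, stands above the P6 block, 0.434 to 0.564, and P6 1 has the lowest values with E12.

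More regions were lost than gained in every choice of libraries that left out 1 of the 6. The rule asks for every library of an age, and E12 libraries were more alike than P6 libraries. Regions in fewer libraries of a single age had the other order. There were 10085 in 1 P6 library only and 4526 in 1 E12 library only, and 3612 and 2576 in 2 libraries of P6 or E12 only. Without P6 1 the gained count went from 1916 to 3353 and without P6 2 to 3145, both more than 1.5 times, and without P6 3 to 2868. The lost count ranged from 3741 to 4784 when 1 library was left out, against 3481. Leaving out a library keeps the earlier regions by construction and adds others: 1915 or 1916 of the 1916 gained regions returned each time. P6 3 alone against E12, within 1 kind of read processing, gave 6594 gained and 4694 lost, but a gained region then needs only 1 P6 library while a lost one still needs 3 E12 libraries, which by itself raises the gained count.

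**Figure D2:**
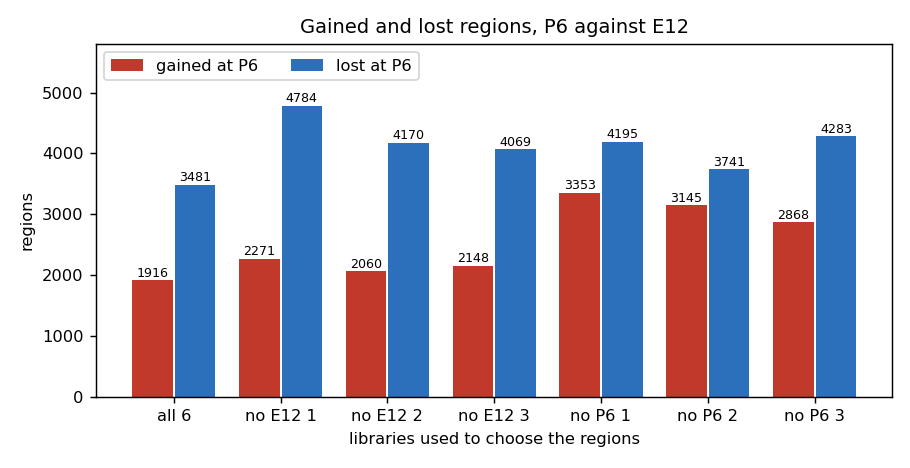
Number of regions gained (red) and lost (blue) at P6, with all 6 libraries and with each library left out. Lost regions outnumber gained ones in all 7 choices, and the gained count rises most, from 1916 to 3353, without P6 1. Each choice asks for every library of an age that it keeps, and E12 libraries were more alike than P6 libraries.

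Most gained regions held a weaker peak at E12. Of the 1916, 1039 (54.2%) had their best E12 peak within the next 27160 ranks after the limit, 470 had one further down, and 407 had no E12 peak of any rank. Of the 3481 lost regions, 1641 (47.1%) had their best P6 peak just beyond the limit, 802 further down, and 1038 had none. A further 3612 regions had a top peak in 2 P6 libraries and no E12 library, and 725 in 3 P6 libraries and 1 E12 library, so they fall just outside the gained set. Just outside the lost set were 2576 regions in 2 E12 libraries and no P6 library, and 1776 in 3 E12 libraries and 1 P6 library.

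Gained regions were more often at gene starts than lost ones. Of the gained regions, 14.8% were within 1 kb of a protein-coding start and 67.6% were more than 10 kb away. Lost regions were at a start in 3.25% and beyond 10 kb in 82.3%. By contrast 65% of the 12843 regions open in all 6 libraries were at a start, and 24.6% of all merged regions, of which 60.8% were beyond 10 kb. The rule keeps regions open in all 6 libraries out of both sets. A lower share than in all merged regions is thus partly set by the rule. The share of a library's own top peaks at a start was 39.8, 39.5 and 37.7% in P6 1, 2 and 3 and 37.4, 35.2 and 35.4% in E12 1, 2 and 3, with no overlap between ages. The difference of 3 percentage points had a two-sided exact permutation p of 0.1, the smallest p possible with 3 against 3. It was 7.86 points with 13580 top peaks and 11.1 with ranking by fold. With full lists it was larger too, but every E12 list is longer than every P6 list. List length and age thus cannot be told apart in full lists. P6 1 and 2 had another read processing than the E12 libraries. Within 1 kind of processing, P6 3 had 37.7%, close to the 37.4% of E12 1 and above the 35.2 and 35.4% of E12 2 and 3.

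Genes were read beside these regions by the nearest protein-coding start within 100 kb. This is a position, not a shown target. Of 21887 genes, 6.43% had a gained region and 9.50% a lost one. The lists of genes below were written with earlier results of these data known, so their counts are descriptions set beside these shares.

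Carriers of the blood-brain barrier were more often beside gained than beside lost regions. Of 14 barrier nutrient transporters, 10 had a gained region and none a lost one. Slc2a1 (Glut1, the glucose carrier) had one 68.2 kb from its start, at chr4:119039716-119040524. It ranked 10176, 13055 and 10943 in P6 1 to 3 and 47072, 77417 and 95377 in E12 1 to 3. The E12 peaks there were far down the lists. Slc7a5, which carries large neutral amino acids and thyroid hormone with Slc3a2, had one 5.73 kb away at chr8:121913416-121914002, ranked 5559, 8127 and 7977 at P6. E12 1 and 2 had no peak there and E12 3 ranked 87941. Slc16a1 (Mct1, lactate and ketone carrier) had one 41.0 kb away at chr3:104596534-104597667, ranked 5194, 9066 and 12478 at P6, with no peak of any rank in the 3 E12 lists.

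Further carriers showed the same order of ranks. Tfrc, the transferrin receptor for iron, had a gained region 41.1 kb away with ranks 10598, 27044 and 12446 at P6, close to the limit in P6 2, and 44705, 38125 and 53452 at E12. Slc6a6, the taurine carrier, had 2 gained regions inside the gene. The one 10.4 kb from the start ranked 11181, 11585 and 11689 at P6 and had no E12 peak at all. Slco1a4, a carrier of organic anions, had 2 as well, 27.9 and 32.8 kb from its start. The region inside its gene ranked 14111, 12564 and 8111 at P6 and 51784, 52183 and 32748 at E12. Slc22a8, another organic anion carrier, had a gained region inside the gene 1.59 kb from the start, ranked 11940, 26891 and 7529 at P6 and 63291, 85248 and 44945 at E12. The 4 without one were Slc3a2, Slco1c1, Slc38a5 and Slc39a8.

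These counts held in part under other choices of regions. Without P6 1 the list had 10 genes gained (9.96% of all genes) and 1 lost, Slc16a1 (11.3%). Without P6 2, the library with the most peaks at genes of other cells, it again had 10 gained (9.85%) and 1 lost (10.3%). Only 2, Slc16a1 and Slc6a6, had a gained region with no E12 peak of any rank, against 1.36% of all genes. Of the 10, 8 had a gained region without a top peak in any of the 3 P6 inputs, against 3.41% of all genes.

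Among 6 efflux pumps, which return drugs and lipids to the blood, Abcb1a, Abcg2 and Abcc5 had a gained region and Abcb1b a lost one. The Abcb1a region, 23.2 kb from the start and inside the gene, ranked 5198, 22273 and 4297 at P6 and 38030, 39186 and 43865 at E12. The Abcb1b region had no P6 peak of any rank, so 1 of the 6 pumps was lost in that sense, against 2.77% of all genes. Without P6 2 the list had 5 genes gained and 1 lost. Of 10 tight junction genes, 2 had a gained region, F11r among them, and 2 a lost one (Ocln, Tjp1), and without P6 2 these were 4 and 2. The lost region 23.1 kb from Ocln, a transmembrane junction protein, ranked 4812, 8475 and 8221 at E12, and 33115 and 34787 in P6 2 and 3.

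Genes of Wnt signalling were on both sides. Of 14 targets and barrier regulators, Nkd1, Tnfrsf19, Foxq1 and Sox17 had a gained region and Lef1, Ebf1 and Sox17 a lost one. Leaving out P6 2 gave 7 gained and leaving out P6 1 gave 5 lost. The gained region at the start of Foxq1, a transcription factor, ranked 8803, 16728 and 7263 at P6 and 43710, 45596 and 45696 at E12. Of 8 receptor genes, Lrp6 and Adgra2 had a gained region, and Fzd6, Tspan12, Adgra2 and Ctnnb1 a lost one. Adgra2 (Gpr124), a co-receptor for Wnt7, had its lost region 1.18 kb from its start and its gained region over it. The gained one ranked 15726, 24777 and 21350 at P6 and 34211 to 49845 at E12. Without P6 2 the receptors had 5 genes gained and 4 lost.

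Genes of sprouting vessels were more often beside a lost region. Of 12 tip and sprouting genes, 6 had a lost region: Apln, Esm1, Cxcr4, Unc5b, Adm and Igfbp3. Igfbp3, a binding protein of insulin-like growth factors, had 3 of them 21.1 to 25.2 kb from its start. The strongest ranked 11156, 8630 and 11805 at E12 and had no peak in any P6 list. The lost region of Unc5b, a netrin receptor, ranked 14456, 19648 and 15382 at E12, also with none at P6. Esm1 and Angpt2 had a gained region: the one 0.643 kb from the Esm1 start lies next to the lost region at the start itself, and neither gained region had an E12 peak. Without P6 2 the list had 5 genes gained and 6 lost. Of 7 fenestra and caveolar genes, Plvap, Cavin2 and Ehd4 had a lost region and Cav1 a gained one, with 2 gained and 4 lost without P6 1 and 2 gained and 3 lost without P6 2. The region at the start of Plvap, which forms the diaphragms of permeable vessels, ranked 11784, 24604 and 15053 at E12. P6 1 had no peak there, as in every lost region, and P6 2 and 3 ranked 60205 and 35590. P6 2, P6 3 and both adult brain libraries did hold another top peak within 1 kb of a Plvap start, so the loss concerns this region and not the whole start. No P6 or E12 brain input had a peak in it.

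Fetal growth genes also leaned to the lost side, with 4 of the 11 that could be placed: Hmga2, Lin28b, Igf2bp2 and Plagl1. Hmga2, a chromatin protein of proliferating embryonic cells, had 3 lost regions and also 1 gained region, all but 1 inside the gene. The strongest lost one, chr10:120401720-120402266, ranked 6056, 7649 and 10736 at E12 and had no peak at P6 or in the adult brain lists. The region of Igf2bp2, an RNA-binding protein, ranked 25299, 23388 and 18509 at E12, also with none later. Lin28b, which blocks let-7 microRNAs, had 2 inside the gene. Igf2bp3 had a gained region. Of 10 arterial genes, Hey1, Hey2, Vegfc and Jag1 had a lost region and Efnb2 and Jag1 a gained one. Vegfc, a growth factor of vessels, had 3 lost regions 23.9 to 79.3 kb away. The middle one ranked 6575, 5476 and 2200 at E12, near the top of the lists, and at P6 only P6 3 had a peak, ranked 48449. Of 8 venous genes, Vwf and Aplnr had a lost region and Aplnr a gained one, and the list had 3 gained without P6 1 and 2 without P6 2, with 2 lost in both.

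The wall and its surroundings gave mixed counts. Of 10 basement membrane genes, 5 had a gained region (Col4a2, Lama4, Lama5, Nid1, Fn1) and 3 a lost one (Col4a1, Col4a2, Lamb1), which became 6 and 5 without P6 1. The region at the shared start of Col4a1 and Col4a2, the chains of type IV collagen, ranked 11964, 23387 and 14611 at P6 and 39230 to 48036 at E12. That of Lama4, a vascular laminin chain, ranked 8553, 11131 and 4955 at P6 and 49203 to 53490 at E12. Of 16 flow and mature endothelial genes, Ly6e, H2-K1, Cxcl12 and Pglyrp1 had a gained region and Klf4 and Cxcl12 a lost one, and without P6 2 these were 7 and 3. Of 18 general endothelial genes, Cdh5, Erg and Sox17 had a gained region and 7 a lost one: Pecam1, Tek, Sox17, Emcn, Esam, Eng and Egfl7. Cdh5, the cadherin of endothelial junctions, had 3 gained regions. Without P6 2 this list had 8 gained and 7 lost, and without P6 1 it had 4 and 9. Of 10 TGF-beta and BMP genes 1 was gained (Id1) and 1 lost (Smad6), which became 7 and 1 without P6 2, and 2 and 3 without P6 1. Of 10 cell cycle genes Mki67 had both, and 2 genes were gained without P6 1 or without P6 2.

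Genes of other brain cells were among those beside gained regions. Of 8 astrocyte genes, 5 had a gained region (Aqp4, Slc1a3, Aldh1l1, Gja1, Sox9) and 1 a lost one (S100b). Of 10 neural progenitor genes, Sox2, Nes, Neurog2 and Fabp7 had a gained region and Emx2 and Lhx2 a lost one. Slc1a3, the glial glutamate carrier, had 3 gained regions, ranked 7734 to 19144 at P6 and 35611 to 101819 at E12, each with a peak in all 3 P6 inputs. The gained regions of Mfsd2a, Slc7a1 and Slc16a1 also had a peak of some rank in all 3, and those of Mfsd2a and Slc16a1 in the E12 input. With regions that had no top peak in any P6 input, 1 astrocyte gene and 1 progenitor gene remained counted. Neuron, microglia and erythroid genes had no gained region, with 1 lost for neurons (Snap25), 1 for microglia (P2ry12) and none for erythroid genes. Oligodendrocyte genes had 1 gained (Pdgfra) and 1 lost (Cspg4), and pericyte genes 2 gained (Pdgfrb, Foxc1) and 1 lost (Foxc1). Of all gained regions, 964 (50.3%) had no top peak in any P6 input, against 54.6% of all merged regions. A top peak in 2 of the inputs was found for 27.5%, against 14.2%, and in all 3 for 11.2%, against 22.8%. P6 input 1 alone had a top peak in 14.4% of the gained regions, and inputs 2 and 3 in 42.8 and 42.4%. Of all merged regions, inputs 1, 2 and 3 had a top peak in 25.5, 39.5 and 40.4%. Of regions open in all 6 libraries, which cannot be gained, they had one in 65.7, 79.4 and 79.6%. Such regions raise the shares with an input peak among all merged regions, here and below. Counting peaks of any rank, 198 gained regions (10.3%) had none in a P6 input, against 27.7% of all merged regions and 70.9% of the lost ones. With regions chosen without P6 2, 73.6% of gained regions had a P6 input peak, about the share of all merged regions. The part of other cells in the gained set was not tested. In bulk nuclei, more nuclei of a type and more signal per nucleus cannot be told apart.

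**Figure D3:**
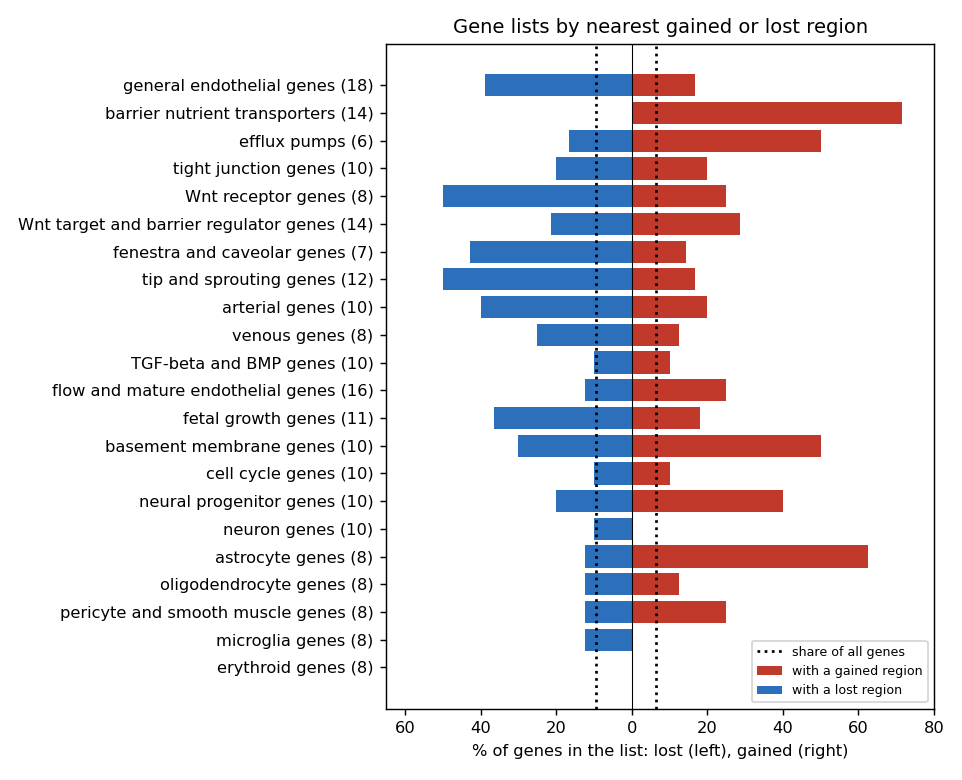
Share of each gene list (number of placed genes in brackets) with a gained region, to the right, and with a lost region, to the left. Dotted lines give the share of all genes, 6.43% gained and 9.50% lost. Barrier nutrient transporters reach 10 of 14 gained with none lost, and tip and sprouting genes 6 of 12 lost.

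The strongest gained regions were read by their worst rank among the 3 P6 libraries. The first lay 3.20 kb from the start of Slc20a2, a phosphate carrier, at chr8:22565273-22566418. It ranked 3054, 3360 and 3018 at P6, 4644 and 4360 in the adult brain libraries, and 32571 to 44466 at E12. The next lay 34.6 kb from the start of Bche, a cholinesterase, inside the gene, and ranked 4062, 3840 and 906 at P6 against 41253 to 46206 at E12. A region 2.74 kb from Cp (ceruloplasmin, a copper-binding ferroxidase) ranked 2570, 4518 and 2580 against 29547 to 38043. A region over the start of Ifi27, an interferon-induced gene that overlaps Ifi27l2a, ranked 4527, 3499 and 2329 against 31412 to 64561. The rest of the first 12 lay nearest to Fam43a, A2ml1, Rabgap1l, Traf3ip3, Lgals9, Fut8, Nrbf2 and N6amt1. All 12 were top peaks in both adult brain libraries. Without P6 1 the order began with regions near Astn2, Slc20a2, Ifi27 and Bche.

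The strongest lost regions ranked still higher at E12. A region inside Epb41l4a ranked 985, 446 and 235. A region inside Magi1, an endothelial junction scaffold, at chr6:93797973-93798639, ranked 1179, 121 and 173, with no peak in P6 2 and a rank of 72842 in P6 3. A region 191 kb from Peli2 ranked 1983, 688 and 844 with no peak at P6, in adult brain or in the brain inputs. The other 9 lay nearest to Tmem200a, Ubtd2, Diaph3, Stam2, Tmem170b, Flrt2, Fam71f1, Hmcn1 and Zcchc2. Of these 12, none was a top peak in adult brain libraries.

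Several genes had clusters of regions. Ptn, a heparin-binding growth factor, had 5 gained regions within 100 kb and 1 lost one. Camk2a, Cdh5, Cep85l, Eps8, Ggact, Gm5820, Gramd1b and Serpine2 had 3 each. Ties were cut in alphabetical order, so other genes, such as Slc1a3, also had 3. Grip1, Itga2 and Slco3a1 had 5 lost regions each, and 1700025G04Rik, Cass4, Chd7, Exoc6, Frmd4a, Mitf and Nsmce2 had 4. Chd7, a chromatin remodeller, had 7 without P6 1.

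Libraries that the choice of regions did not use showed where else these regions were open. All merged regions, given beside them, include those open in all 6 libraries, which the rule keeps out of both sets. In the adult brain endothelial libraries 80.2 and 83.0% of the gained regions had a top peak, against 46.6 and 47.9% of all merged regions. In 10 endothelial libraries of the other adult organs the share was 21 to 37.7%, against 31.5 to 41.2% of all merged regions, and the mean difference was 50.1 percentage points (81.6 ± 1.96% against 31.5 ± 6.89%, SD, n = 2 and 10; two-sided exact permutation p = 0.0152, the smallest of 66 splits; adjusted over 5 comparisons, 0.0714). This comparison was chosen after its values were seen. With the regions chosen without P6 1 the adult brain shares were 71.0 and 72.2%, and without P6 2 they were 62.8 and 67.8%. Lost regions were open in 3.36 and 3.62% of cases in adult brain.

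Lost regions were open in E12 trunk endothelium more often than in E12 heart endothelium. They had a top peak in 76.3, 75.6, 77.3 and 83.6% of cases in E12 trunk libraries 1 to 4, where 49.1 to 50.5% of all merged regions did. In E12 heart libraries 1 to 4 the shares were 39.6, 39.0, 45.6 and 39.9%, against 40.1 to 43.9% of all merged regions. Those include the regions open in all 6 brain libraries, which cannot be lost. In E12 heart these were open in 88.7 to 92.1% of cases, so the remaining regions were open less often than all merged ones. Trunk exceeded heart by 37.2 percentage points (two-sided exact permutation p = 0.0286, the smallest of 70 splits; adjusted over 5, 0.0714), also compared after seeing the values, and trunk and heart lists have different read processing. With full lists the difference was 20 points. Gained regions were open in 5.53 to 13.6% of cases in trunk, and in 17.2% in the E12 brain input.

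The same change of age in heart endothelium was set beside that of brain. Gained brain regions were open in 37.1 and 39.5% of cases in P6 heart libraries and in 21.5 to 22.6% in the 4 E12 heart libraries. All merged regions were open in 42.4 and 43.0% and in 40.1 to 43.9% of cases there, more often than gained regions at either age. They include the regions open in all 6 brain libraries, which cannot be gained. Those were open in 89.2 to 90.6% of cases in P6 heart and 88.7 to 92.1% in E12 heart. The shares of gained regions did not overlap between ages, and P6 was higher by 16.1 percentage points (two-sided exact permutation p = 0.0667, adjusted over 3 comparisons 0.1, the smallest p here being 0.0667). With regions chosen without P6 1 it was higher by 9.58 points (exact permutation p = 0.0667), and with full lists by 12.6 (p = 0.467). Lost brain regions were open in 34.8 and 33.4% at P6 and 39.0 to 45.6% at E12 in heart, a difference of -6.94 points (p = 0.0667, adjusted 0.1, exact permutation test). It was -4.47 with regions chosen without P6 1 (exact permutation p = 0.2), -7.54 with full lists (p = 0.533) and -11.4 with regions that had no P6 peak of any rank (p = 0.0667). These heart shifts were in the same direction as in brain. Both main tests had the smallest p that 2 against 4 libraries allow, 0.0667, so neither could have given a lower one.

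Retina endothelium, which also forms a barrier, was not nearer to the gained set by top peaks. The share was 30.8, 29.3 and 29.4% in the 3 P6 retina libraries, where 40.4 to 41.2% of all merged regions were open, and 23.9 to 39.5% in the 8 libraries of heart, kidney, liver and lung. All merged regions include those open in all 6 brain libraries, which were open in 93.5 to 94.6% of cases in P6 retina. For gained regions, retina minus the other organs gave a mean difference of -1.8 percentage points (two-sided exact permutation p = 0.6, adjusted over 3 comparisons 0.6). The sign turned, to 0.645 points, with the regions chosen without P6 1. With full lists retina was higher by 25.9 points (p = 0.0121, exact permutation test), but its lists, of 84241 to 92863 peaks, are all longer than the 43882 to 76326 of the other organs, so list length and organ cannot be told apart there. Lost regions were open in 8.16 to 11.7% of cases in P6 retina, below the 29.6 to 36.2% of the other P6 organs, a difference that was not tested.

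**Figure D4:**
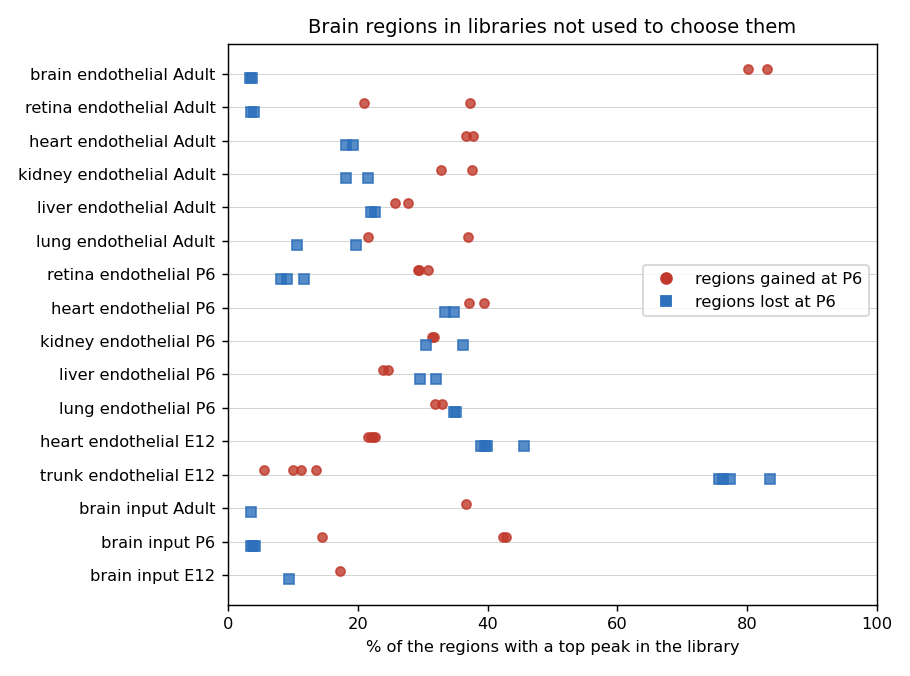
Share of the gained (red circles) and lost (blue squares) brain regions that hold a top peak in each library of the endothelial groups and brain inputs, 1 mark a library. Adult brain endothelium stands apart at 80.2 and 83.0% of gained regions, and E12 trunk at 75.6 to 83.6% of lost ones.

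Single-cell RNA of brain endothelium at neighbouring ages gave a readout that the peak lists did not use. The series also lists replicate bulk RNA libraries of brain endothelium at E12 and P6, which were not analysed here. There was 1 single-cell library at E12.5 (whole brain) and 1 at P8 (cortex). Age, brain part, dissociation and library thus cannot be told apart, and no test was made. Cells were enriched with CD31 beads. Barcodes with a UMI of at least 3 of 8 endothelial genes (Cdh5, Pecam1, Cldn5, Egfl7, Esam, Tie1, Eng and Emcn) and at least 1000 UMIs were kept: 6843 of 8310 at E12.5 and 5629 of 7305 at P8, with medians of 10116 and 7596 UMIs. The files share 3 barcodes, and doublets were not removed. Their UMIs, counts of captured RNA molecules, were summed and scaled to the library total as CPM. Exact 95% Poisson intervals cover counting error only. A gene was taken as higher at 1 age at a CPM ratio of 2 or more, among 8284 genes with 10 CPM or more at either age.

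Genes beside gained regions were more often higher at P8. Of 568 genes with a gained and no lost region, 202 (35.6%) were higher at P8, against 18.3% of all genes compared, and 61 (10.7%) were higher at E12.5, against 14.1%. Of 844 genes with a lost and no gained region, 138 (16.4%) were higher at E12.5 and 179 (21.2%) at P8, both nearer the shares of all genes. With regions chosen without P6 1, 33.0% of 757 genes beside gained regions were higher at P8, and without P6 2, 35.6% of 919. Genes beside lost regions were higher at E12.5 in 15.5 and 17.4% under these choices.

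Barrier transporters had more RNA at P8. The 14 genes summed to 3460 CPM at E12.5 and 10383 CPM at P8, with 10 higher at P8 and none at E12.5. Of the 10 with a gained region, 8 were higher at P8. Slc16a1 had 7.08 CPM (95% interval 6.53 to 7.68) at E12.5 and 1663 CPM (1653 to 1673) at P8, a ratio of 235. Slco1a4 was counted 7 times at E12.5 (0.0831 CPM, 0.0334 to 0.171) and 17060 times at P8 (266 CPM, 262 to 270). Tfrc had 50.1 and 999 CPM, Slc22a8 30.5 and 449, and Mfsd2a 108 and 788. Slc2a1 went the other way, with 1130 CPM at E12.5 and 817 at P8, as did Slc7a5 with 291 and 222. Slco1c1, a thyroid hormone carrier, had no gained region and still had 124 and 1621 CPM. Of the efflux pumps, Abcb1a had 24.4 and 274 CPM and Abcg2 387 and 351.

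Genes of leaky and growing vessels gave unequal ratios. Plvap had 505 CPM at E12.5 and 19.9 at P8, 25.4 times as much at E12.5. Igfbp3 had 287 and 48.4 CPM, Esm1 37.3 and 8.14, and Emcn, which is part of the gate, 518 and 176. The 12 tip and sprouting genes summed to 1334 CPM at E12.5 and 1593 at P8. Of the 11 compared, 1 was higher at P8 and 2 at E12.5. Hmga2 had 45.7 and 0.67 CPM, Igf2bp2 29.1 and 0.577, and Plagl1, a growth regulator, 209 and 15.4. All 9 fetal growth genes compared were higher at E12.5. Apln, a ligand of tip cells, and Lef1, a Wnt effector, had a lost region but more RNA at P8, with 135 and 301 CPM and 77.5 and 184 CPM. Ocln, with a strong lost region, had 27.8 and 166 CPM, Klf4 46.8 and 248, Fzd6 45.9 and 141, and Tjp1 157 and 397. Over all 15 endothelial lists, 16 of 32 genes with only a lost region had more RNA at P8, and 25 of 33 with only a gained one. Here any excess of CPM was counted, without the ratio of 2. The median log2 ratio of P8 over E12.5 was 0.02 for all 8284 genes compared, near equal levels. Unc5b had 62.4 and 49.8 CPM and Vegfc 21.4 and 34.2. Ptn, the gene with most gained regions, had 24.9 and 844 CPM, while Slc20a2, beside the strongest one, had 10.4 and 6.53.

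RNA of other cells differed between the single-cell libraries as well. The 8 erythroid genes summed to 6815 CPM at E12.5 and 15514 at P8, the 8 microglia genes to 141 and 14.2, and the 8 pericyte genes to 142 and 737. The 8 astrocyte genes summed to 153 and 137 CPM, of which Gja1 had 143 and 89.5. Aqp4 was not detected at E12.5 and had 46 UMIs (0.717 CPM) at P8, and Slc1a3 had 2.37 and 5.33 CPM. Sox9, also with a gained region, had 6.38 and 34.2 CPM. The 10 neural progenitor genes summed to 133 and 375 CPM, of which Nes, which had gained regions too, had 109 and 365.

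**Figure D5:**
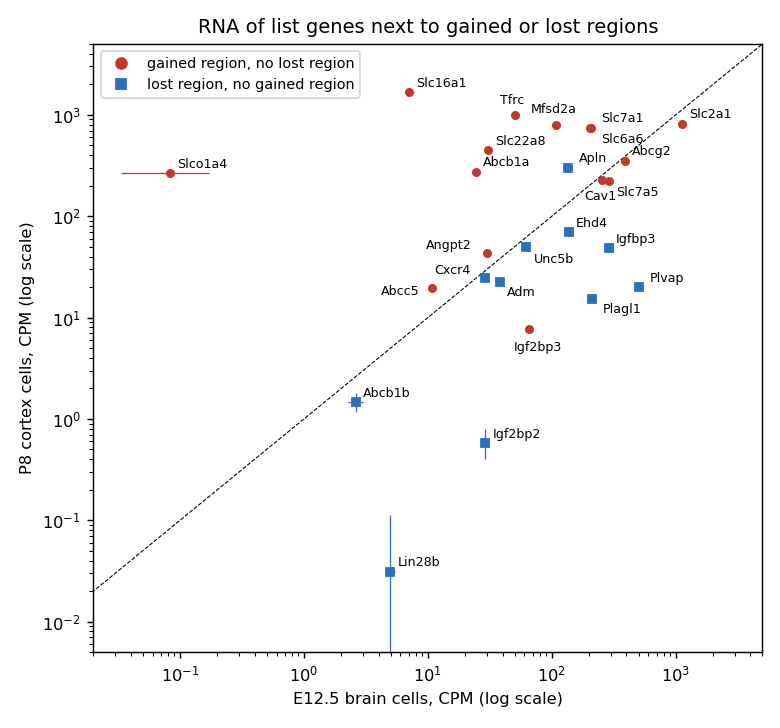
Summed RNA of gated cells at E12.5 (x axis) and P8 (y axis), both in CPM on log axes, for 26 genes of the barrier transporter, efflux pump, fenestra and caveolar, tip and sprouting, and fetal growth lists with a gained (red) or lost (blue) region only. Bars are exact 95% Poisson intervals, and the dashed line marks equal levels. Genes not reported here are left out of the plot. Of the 15 plotted genes with a gained region 10 lie above the line, and of 11 with a lost region 1, Apln. Over all 15 endothelial lists, with the genes not reported, these are 25 of 33 and 16 of 32.

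Promoters inside the regions were compared by motif words. Of 32851 RefSeq promoters from 250 bases before to 50 after a start, 271 lay over a gained region, 123 over a lost one and 9323 over top peaks in all 6 libraries. Promoters on chromosome 18 were left out of all these sets. Their median GC was 60.7% for gained, 52.7% for lost, 62.3% for those open in all 6 libraries and 52.7% for all promoters. The word AGGAAGT, a core of ETS factors that are central to endothelial genes, was in 18.7% of lost promoters, 7.01% of gained ones and 9.35% of all. ACAATGG (SOX) was in 10.6, 1.11 and 3.66%, and TGANTCA (AP-1) in 11.4, 4.06 and 7.81%. CTTTGAT (TCF/LEF) was in 1.63% of lost, 2.95% of gained and 3.73% of all promoters, and TGTTTAC (FOX) in 0.813, 2.95 and 3.65%. CAGCAGG (ZIC) was in 9.76% of lost promoters, 14.4% of gained ones and 3454 of all 32851, and CAGNGGGC (CTCF) in 7.32, 14.8 and 9.06%. GGGNGTGG (KLF) was in 17.9, 20.7 and 17.6%, TTGGCA (NFI) in 13, 12.5 and 14.1%, TGTGGT (RUNX) in 19.5, 10.7 and 16.8%, and AGATAA, the word of the Gata factors, in 12.2, 6.27 and 11.2%. Promoters open in all 6 libraries held the ETS word in 8.32%, SOX in 1.62%, AP-1 in 3.72% and CTCF in 14% of cases, near the shares of gained promoters. They held the ZIC word in 9.21% and the Gata word in 4.77%, below the gained promoters. Both strands were searched. Median GC was higher in gained promoters than in all promoters, and its part in their shares was not tested, while lost promoters had the median GC of all promoters. Of the promoters printed above, that of Slc7a1 holds the words of TCF/LEF, ZIC, KLF and CTCF, that of Emcn the word of NFI, and those of Mfsd2a and Esm1 none. Sequences of regions away from promoters were not analysed here.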

How the data were processed

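Each deposited peak list was made from 1 library by MACS2 2.1.2, per the file headers, with no control and in broad mode (shift -100 bp, extension 200 bp, q-value 0.05 and 0.1 for broad regions). The deposited lists give each peak's fold, a ratio over local background, and −log10 of its q-value. Bowtie2, SAMtools 1.13, Picard and genome build mm10 are named in the submitters' processing notes. Deposited single-cell files hold UMI counts, and Cell Ranger is named in the processing notes.

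Ranks, merged regions (1 bp overlap), nearest starts and permutation tests were computed with Python 3.11.15, numpy 2.4.6, pandas 2.3.3 and scipy 1.17.1. Ranking and overlap were tested on simulated lists. Gene starts came from RefSeq GRCm38.p6 promoters for 17492 genes, and from both gene ends for 4395 others, whose strand is not given. Sequences are RefSeq's. The precision of a rank is limited by depth, given in the report. Members and gene lists were chosen with earlier results of these data known. Genes named are list members with a region, the 12 best-ranked gained and lost regions, and the 10 genes with most regions, also without P6 1. Among genes tied for the last places of these 10, the first in alphabetical order were taken. Alternatives were another number of top peaks, ranking by fold, overlap of 50%, absence in full lists, regions of at most 3000 bp, libraries left out, and the replicate number as a block. Deviations of same-numbered E12 and P6 libraries correlated only weakly, at most 0.0548, though above those of libraries with other numbers. Numbers were not taken as pairs. Some genes that this rule names are not reported here, though the counts over lists include them.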

Additional observations from a re-analysis of the deposited data

Results flagged for a closer look

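The lost brain regions were open in 45.6% of cases in E12 heart endothelial library 3, far from the other 3 libraries of that group (39.0 to 39.9%). This library also has the shortest peak list of its group, 39096 peaks against 101219 to 120456. Of 4 such values checked, 1 stood apart, and how often chance alone would set a value apart was not computed.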

How the results depend on the processing

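With 13580 top peaks a library the counts were 892 gained and 1594 lost, and 1365 and 1827 without P6 1. Ranking by fold gave 3151 gained and 4583 lost, and without P6 1 5082 and 5086, so lost regions hardly outnumbered gained ones there. Requiring a top peak to cover 50% of a region gave 1126 gained and 5424 lost. With no peak of any rank at the other age the counts were 407 and 1038, and 894 and 1044 without P6 1. Presence in at least 2 of 3 libraries gave 5528 and 6057. Without P6 1, 79903 top peaks a library gave 14461 gained and 13505 lost, and P6 3 alone gave 6594 gained, under a looser rule for gained regions, and the larger side changed in both. With no peak in a brain input of the same age, an alternative chosen after seeing the data, the counts were 198 and 2072, and 290 and 2408 without P6 1. That rule is stricter for gained regions, which must be absent from 3 P6 input lists, than for lost ones, with 1 E12 input list. The cause of these shifts was not tested, beyond the smaller or larger lists themselves. Leaving out 1 library gave 2060 to 3353 gained and 3741 to 4784 lost, and, without P6 1, 3639 to 3879 and 4927 to 5601. It moved the Jaccard difference to between 0.139 and 0.264, the start share to between 2.57 and 3.68, the retina difference to between -2.91 and -0.688, the heart differences to 14.9 to 17.3 and -7.67 to -5.4, adult brain to 48.7 to 51.5 (exact permutation p = 0.0909 without either adult brain library, the smallest possible there) and trunk to 35.4 to 38.7. The retina difference reversed to 0.645 with regions chosen without P6 1 and to 25.9 with full lists, which are longer for retina. With the replicate number as a block, the start share differed by 3 (exact sign-flip p = 0.25). Same-numbered libraries correlated at 0.0184, 0.0311 and 0.0548, and libraries with other numbers at -0.0447 to 0.0121. P6 libraries are the shallower ones, but P6 1 kept about as many tags as P6 2 and 3, and the cause of its short list was not tested.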
